A study of Mus musculus with 2 samples.

Results

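The levels of 6 microRNA (miRNA) genes that lie in introns of 3 host genes expressed in choroid plexus or pigment epithelium were followed in the embryonic mouse forebrain. Mir1912, Mir1264, Mir1298 and Mir448 lie within Htr2c, the gene of a serotonin receptor. Mir204 lies in an intron of Trpm3 and Mir211 in an intron of Trpm1. They are 6 of 1973 miRNA gene rows, taken by host gene and name. The group was also selected on measured values: in earlier results on the same libraries several of these genes had lower counts in replicate 2 than in replicate 1. The difference between the libraries is therefore given below as a description with no test.

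Small RNA below 30 nt was sequenced from the forebrain of healthy B6NCrl mouse embryos at day 15.5, untreated and with no allele named in the labels. There was 1 group with 2 biological replicates, each a pool of tissue from male and female embryos, 78 embryos in replicate 1 and 62 embryos in replicate 2. Pooling hides any difference between single embryos, and with 1 group no condition could be compared. No source used here says whether the pools shared litters or a dissection day, and part of their spread may be technical.

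MiRNAs are cut as short strands from hairpin precursors and lower the output of messenger RNAs that pair with their seed, bases 2 to 8 from the 5′ end. Htr2c encodes the serotonin 2C receptor, which is abundant in the epithelium of the choroid plexus, the tissue that secretes cerebrospinal fluid, and is also made in neurons. Trpm3 and Trpm1 encode related cation channels. Trpm3 is expressed in choroid plexus and retinal pigment epithelium, and Trpm1 in melanocytes, pigment epithelium and retinal bipolar cells. A miRNA in an intron of a host gene can be made from the host's transcript.

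The mature sequences, from RefSeq on GRCm38.p6, are shown first because the counts are per gene and add up the 2 arms of a hairpin. All 6 genes matched the table, with 10 mature sequences. For Mir1912 and Mir1264 it listed only 1 arm, so the seed of the other arm was not examined. The seed is in capitals.

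miR-1912-3p: cACAGAACaugcagugagaacu

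miR-1264-3p: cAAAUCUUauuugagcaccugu

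miR-1298-5p: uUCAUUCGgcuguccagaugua

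miR-1298-3p: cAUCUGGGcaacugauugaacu

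miR-448-5p: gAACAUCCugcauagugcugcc

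miR-448-3p: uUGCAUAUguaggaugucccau

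miR-204-5p: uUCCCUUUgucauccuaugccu

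miR-204-3p: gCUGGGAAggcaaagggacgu

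miR-211-5p: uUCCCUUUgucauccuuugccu

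miR-211-3p: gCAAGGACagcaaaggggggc

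The 10 sequences held 9 distinct seeds. Only the 5p products of Mir204 and Mir211 shared a seed among them, and these differ by 1 substitution over 22 positions, A17U, counted from the 5′ end with the base of miR-204-5p first. Their 3p products differ at 7 of 21 positions. The 6 sequences from the Htr2c introns had 6 different seeds, and no other mature mouse miRNA of the table carried any of them. The seed of miR-204-5p and miR-211-5p was found in 1 further mature sequence, miR-7670-3p, whose gene Mir7670 had 0 counts in either library. No mature sequence of the 6 genes lay whole in another hairpin of the table, but the first 15 bases of miR-204-5p and of miR-211-5p each matched 1 other hairpin. A read of these 5p products that ends before position 17 has no base that tells the genes apart, and gene rows leave out reads that matched several loci.

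The hairpins of Mir204 and Mir211, which carry the shared seed on the 5p arm, are printed with both mature arms in capitals.

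Mir204: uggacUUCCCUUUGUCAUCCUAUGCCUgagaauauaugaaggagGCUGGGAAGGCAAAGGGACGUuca

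Mir211: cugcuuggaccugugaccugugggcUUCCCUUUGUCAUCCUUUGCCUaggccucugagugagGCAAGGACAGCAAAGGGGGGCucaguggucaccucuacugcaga

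The hairpin of Mir1298, the most abundant gene of the Htr2c introns, is shown in the same way.

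Mir1298: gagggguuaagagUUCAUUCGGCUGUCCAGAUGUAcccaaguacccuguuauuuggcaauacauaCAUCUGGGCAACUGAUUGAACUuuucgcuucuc

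Hairpins of 5 of the 6 genes were in the table, and they ran from 68 nt for Mir204 to 112 nt for Mir448, against a median of 79 nt over 1005 hairpins. Their predicted folding energy per base lay between -0.54 kcal/mol per nt (Mir211) and -0.45 kcal/mol per nt (Mir448). The median of all hairpins was -0.41 kcal/mol per nt, and their central 90% ran from -0.60 to -0.26. The folding energies of the 5 hairpins were thus inside the usual range.

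Replicate 1 held 4464927 counts on the strand of a miRNA gene and replicate 2 held 4753555. Levels are CPM, counts scaled so that these totals become 1000000, as mean ± SD with n = 2 libraries. At this depth 1 count was 0.224 CPM in replicate 1 and 0.210 CPM in replicate 2. Each read spans a mature strand, so levels were not divided by gene length. Differences in capture between sequences were not corrected. Reads at several loci, outside the gene rows, made up 44.6% of replicate 1 and 42.4% of replicate 2, and unmapped reads 14.3% and 18.2%. Intervals are 95% Clopper-Pearson intervals and cover counting error only, since the reads carried no molecular identifiers known here and copies of 1 molecule may be counted more than once. The neuron list of 12 miRNA genes summed to 19275 and 18486 CPM in replicates 1 and 2. Mir137 alone had 9747 and 8437 CPM, and the Mir124a genes of the list were not detected. Reads that match several loci are outside the gene rows, so low rows of genes with several copies, such as Mir124a, do not show absence. With 1 tissue and no reference level, the sum of the neuron list cannot check the tissue label. The files held miRNA genes only. RNA of the hosts and protein-coding markers of the choroid plexus were not analysed here, so the choroid plexus origin of the 6 genes was not checked.

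All 6 genes were detected, which means 10 or more counts in both libraries, as were 370 of the 1973 rows. Together they held 0.323% of the counts. Mir204 and Mir1298 were the most abundant, and Mir211 and Mir1912 had few counts. By the count ratios within a library, Mir448 was 8.97 times lower than Mir1298 in replicate 1 (interval 8.39 to 9.59). In replicate 2 it was 7.43 times lower (interval 6.84 to 8.08). Mir1264 was 16.2 and 16.6 times lower than Mir1298 in replicates 1 and 2.

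Mir1298 (chromosome X, 147064905 to 147065002, plus strand of mm10) had 8690 counts in replicate 1 and 4772 in replicate 2. These counts were 1946 CPM (interval 1906 to 1988) and 1004 CPM (interval 976 to 1033), with a mean of 1475 ± 666 CPM (SD, n = 2). Replicate 1 was the higher library. Mir1298 was at place 76 among detected genes, between Mir204 and Mir379 (1332 ± 111 CPM).

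Mir448 (chromosome X, 147158210 to 147158321) had 969 and 642 counts, at 217 CPM (interval 204 to 231) in replicate 1 and 135 CPM (interval 125 to 146) in replicate 2. Its mean was 176 ± 58.0 CPM (SD, n = 2), at place 164 of the detected genes. Its neighbours in level were Mir135a-1 (176 ± 7.65 CPM) and Mir494 (167 ± 32.1 CPM).

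Mir1264 (chromosome X, 147010601 to 147010686) had 537 and 287 counts, at 120 CPM (interval 110 to 131) and 60.4 CPM (interval 53.6 to 67.8). Its mean was 90.3 ± 42.4 CPM (SD, n = 2), at place 197. The libraries were again ordered with replicate 1 above replicate 2. Mir302d (90.9 ± 1.26 CPM) and Mir223 (88.0 ± 15.1 CPM) stood beside it in mean level.

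Mir1912 (chromosome X, 147009441 to 147009527) was the lowest of the 6, with 17 counts in replicate 1 and 10 in replicate 2. Its levels were 3.81 CPM (interval 2.22 to 6.10) and 2.10 CPM (interval 1.01 to 3.87), with a mean of 2.96 ± 1.20 CPM (SD, n = 2). With 10 counts in replicate 2 it was just at the minimum for a detected gene, and it stood at place 361 of 370.

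Mir204 (chromosome 19, 22750605 to 22750672, plus strand) had 8135 counts in replicate 1 and 5412 in replicate 2. Its level was 1822 CPM (interval 1783 to 1862) and 1139 CPM (interval 1108 to 1169), with a mean of 1480 ± 483 CPM (SD, n = 2). Replicate 1 was again the higher library. Its place was 75, below Mir431 (1557 ± 0.574 CPM).

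Mir211 (chromosome 7, 64205806 to 64205911, plus strand), whose 5p product carries the same seed as that of Mir204, had 33 and 15 counts. Its level was 7.39 CPM (interval 5.09 to 10.4) in replicate 1 and 3.16 CPM (interval 1.77 to 5.20) in replicate 2, a mean of 5.27 ± 2.99 CPM (SD, n = 2). The higher library was replicate 1. Mir211 was at place 325, next to Mir26a-1 (5.31 ± 0.225 CPM).

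**Figure D1:**
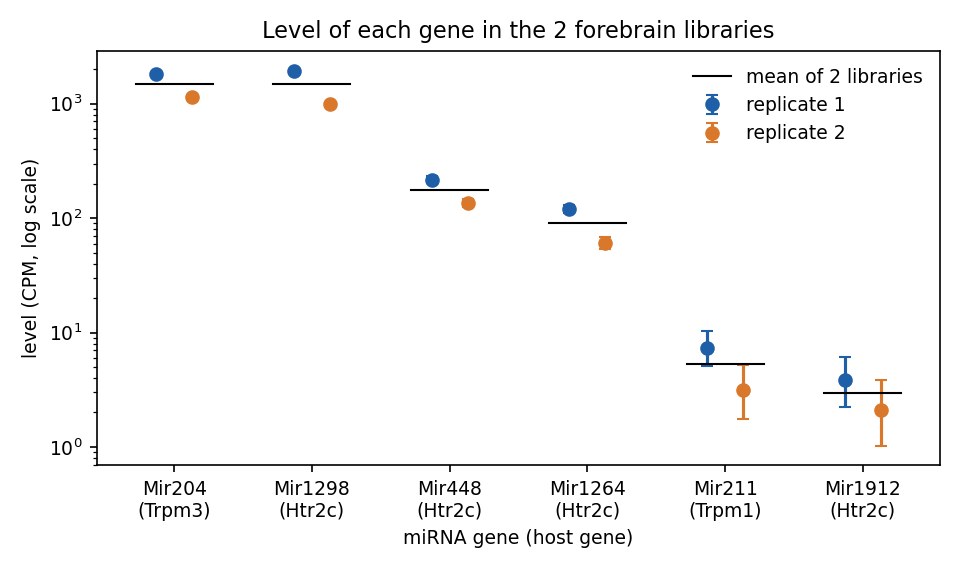
Level of each of the 6 genes (horizontal axis, host gene in brackets) in CPM on a log axis, with 1 point per library, 95% Clopper-Pearson intervals and a line at the mean. Replicate 1 lies above replicate 2 for all 6 genes, from 1946 against 1004 CPM for Mir1298 to 3.81 against 2.10 CPM for Mir1912.

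In the order of mean levels, 2 pairs of neighbours were not separated. Mir204 and Mir1298 differed in mean by less than the SD of either, and their order crossed: the count ratio of Mir1298 to Mir204 was 1.07 (interval 1.04 to 1.10) in replicate 1 and 0.882 (interval 0.848 to 0.917) in replicate 2. Mir211 and Mir1912 differed in mean by less than the SD of Mir211, an SD that includes the drop both share in replicate 2. Mir211 was higher in each library, with 33 against 17 counts in replicate 1 and 15 against 10 in replicate 2. The intervals of their levels overlapped in each library. Mir448 stood above Mir1264 by more than the SD of either. The count ratio of Mir448 to Mir1264 was 1.80 in replicate 1 and 2.24 in replicate 2.

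Ratios of genes within a library do not depend on scaling. Counts in the Mir204 row exceeded those in the Mir211 row by 247-fold (interval 175 to 358) in replicate 1 and by 361-fold (interval 219 to 645) in replicate 2. Mir204 thus held 99.6% and 99.7% of the counts of the pair that shares the seed. These intervals overlapped and were wide because Mir211 had few counts. A difference of this ratio between the libraries was not tested. The 5p products of the genes differ only at A17U, and how many reads were assigned to the wrong gene of the pair was not tested.

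None of the 6 genes had a count on the opposite strand in either library. A count of 0 was taken to allow up to 3 counts, a rule apart from the Clopper-Pearson intervals. This limit was 0.0221% of 13547 counts for Mir204, 0.0223% of 13462 for Mir1298 and 11.1% of 27 for Mir1912. Over all gene rows, opposite-strand counts were 1.59% in replicate 1 and 1.49% in replicate 2. Reads of the 6 genes were therefore on the strand of their hosts, which are on the plus strand of their chromosomes.

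The position of the genes within Htr2c (chromosome X, 146962513 to 147197277) was compared with their levels. The GENCODE M21 annotation holds 7 miRNA hairpins in this host, none of which overlapped an exon of any of its transcripts. In the principal transcript of 7 exons, intron 3 holds 5 hairpins, Mir1912, Mir1264 and Mir1298 among them, and intron 5 holds 2 hairpins, of which Mir448 is 1. The introns are 85.3 kb and 93.5 kb long.

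The other 3 hairpins of Htr2c had a row and were not counted among the members, since the choice names 4. Mir764 had 6 counts in replicate 1 and 5 in replicate 2 (1.34 and 1.05 CPM), and Gm22650 had 1 and 2 counts. Gm24627, from which RefSeq lists miR-1911, had 0 counts. By the same limit of 3 counts this allows up to 0.672 CPM in replicate 1 and 0.631 CPM in replicate 2. All 3 were below the minimum for a detected gene.

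Within intron 3, counts rose with distance from the start of the transcript over its 5 hairpins in both libraries, from Gm22650 through Mir764, Mir1912 and Mir1264 to Mir1298, and the 2 hairpins of intron 5 did not continue this order. Mir1912 and Mir1264 lie 1.07 kb apart in the same intron, and Mir1264 had 31.6 times the counts of Mir1912 in replicate 1 (interval 19.5 to 54.6) and 28.7 times in replicate 2 (interval 15.4 to 60.5). Mir1298 lies 54.2 kb further along the same intron and had 16.2 times the counts of Mir1264 in replicate 1 (interval 14.8 to 17.7) and 16.6 times in replicate 2 (interval 14.8 to 18.8). Mir448, 195.7 kb from the start of the transcript and in another intron, was between Mir1264 and Mir1298. Among the 4 members in this host, Mir1298 exceeded Mir1912, the lowest, by 511-fold in replicate 1 and 477-fold in replicate 2.

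**Figure D2:**
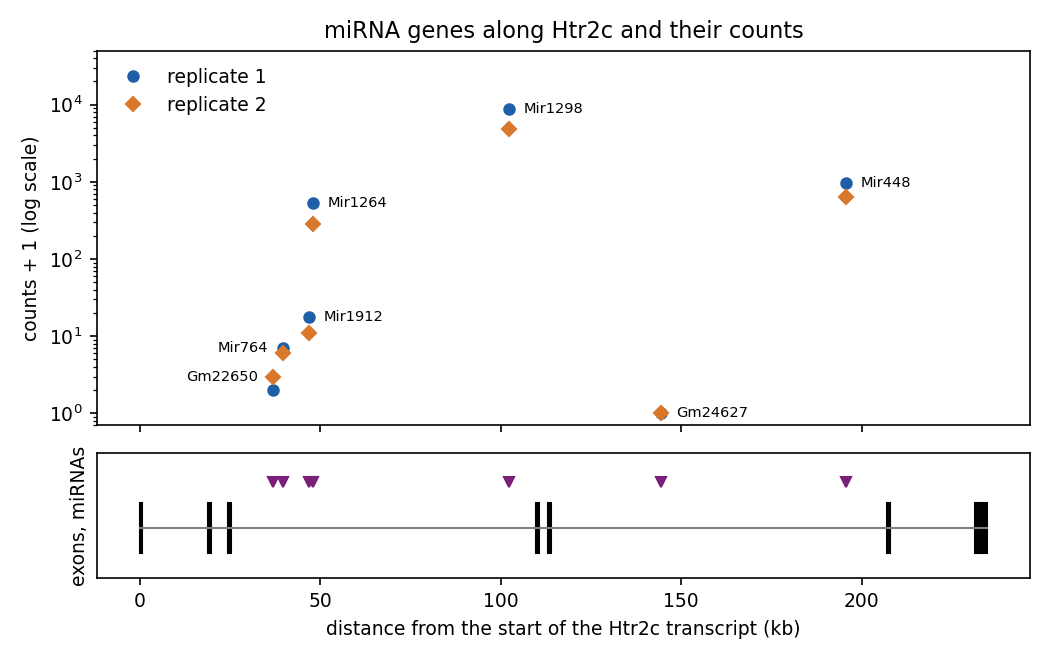
Counts plus 1 (log axis) of the 7 miRNA hairpins of Htr2c in each library, against distance in kb from the start of the principal transcript, above a map of its 7 exons (black boxes, those under 0.8 kb drawn at 0.8 kb) and the hairpins (triangles). Mir1298, at 102.4 kb, is the highest with 8690 and 4772 counts, and Gm24627 has 0 counts.

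Mir204 and Mir211 lie at matching places in their hosts. Mir204 is in intron 6 of the principal Trpm3 transcript of 26 exons (chromosome 19, 22139046 to 22995410), and Mir211 is in intron 6 of the principal Trpm1 transcript of 27 exons (chromosome 7, 64153835 to 64269775). The intron is 33.5 kb long in Trpm3 and 3.68 kb long in Trpm1. Trpm1 holds 1 more hairpin, Mir6416, on the opposite strand in intron 26, and it had 0 counts in either library.

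The 4 genes of the Htr2c introns summed to 2287 CPM in replicate 1 (interval 2243 to 2332) and 1201 CPM in replicate 2 (interval 1170 to 1233), a mean of 1744 ± 768 CPM (SD, n = 2). Mir1298 made up 85.1% of this sum in replicate 1 (interval 84.4 to 85.8) and 83.6% in replicate 2 (interval 82.6 to 84.5). Mir448 made up 9.49% (interval 8.93 to 10.1) and 11.2% (interval 10.4 to 12.1). Mir1264 made up 5.26% (interval 4.83 to 5.71) and 5.03% (interval 4.47 to 5.62), and Mir1912 0.166% and 0.175%. The order of the 4 shares was thus the same in both libraries, though the intervals of the Mir448 share did not overlap.

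**Figure D3:**
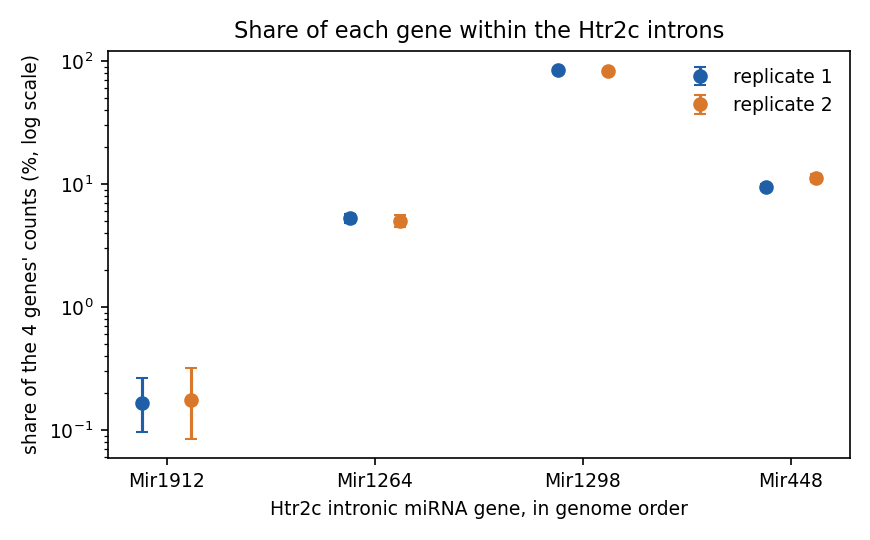
Share of each gene in the summed counts of the 4 genes of the Htr2c introns (percent, log axis) in each library, with 95% Clopper-Pearson intervals. The shares keep their order in both libraries, from Mir1298 (85.1% and 83.6%) to Mir1912 (0.166% and 0.175%), with Mir448 at 9.49% and 11.2%.

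All 6 genes were lower in replicate 2, by ratios that ran from 1.60-fold for Mir204 to 2.34-fold for Mir211. On the log2 scale, with 0.5 counts added, the ratio of replicate 2 to replicate 1 was -0.96 for Mir1298 (interval -1.01 to -0.90) and -0.99 for Mir1264 (interval -1.21 to -0.78). Mir448 stood at -0.68 (interval -0.83 to -0.54) and Mir1912 at -0.83 (interval -2.15 to 0.35). Mir204 stood at -0.68 (interval -0.73 to -0.63) and Mir211 at -1.20 (interval -2.21 to -0.31). In bulk tissue, fewer cells of a type and less RNA per cell cannot be told apart.

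Of the 6 genes, 6 had a log2 ratio at or below -0.5, and so did 6.22% of the 370 detected genes. Of the 4 with at least 100 counts in each library, 4 did, against 4.83% of 269 genes. This contrast led to the choice of the genes, so nothing is read from these counts. The median ratio was -0.89 over the 6 genes and 0.046 over all detected genes. The coefficient of variation between the libraries ran from 32.6% for Mir204 to 56.8% for Mir211, and its median over detected genes was 9.18%. The SD of each mean above is correspondingly wide.

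The summed ratio of the Htr2c introns was -0.93 (interval -0.98 to -0.88), and that of Mir204 and Mir211 was -0.68 (interval -0.73 to -0.63). Htr2c lies on chromosome X, and the pools mixed male and female embryos in shares that no source used here gives. The other 36 detected genes of chromosome X had a median log2 ratio of 0.11, from -0.27 to 1.00. Of them, 0 were at or below -0.5, beside 6.22% of all 370 detected genes. The part of the sex mix in the ratios of the Htr2c introns was not tested. The counts of the Htr2c introns relative to those of Mir204 and Mir211 were 1.25 (interval 1.21 to 1.29) in replicate 1 and 1.05 (interval 1.01 to 1.09) in replicate 2.

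**Figure D4:**
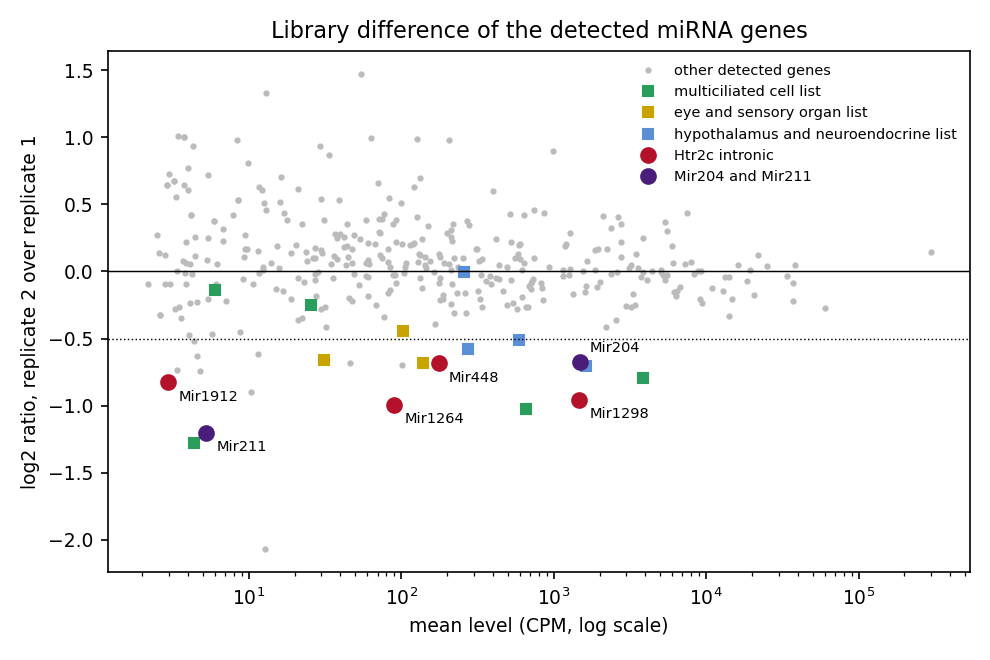
Log2 ratio of replicate 2 over replicate 1 against mean level (CPM, log axis) for the 370 detected genes, with the 6 genes named, 3 marker lists as squares and a dotted line at -0.5. The 6 genes lie between -1.20 and -0.68, while the median of all detected genes is 0.046.

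Marker lists of other cell types that a forebrain dissection could hold were read beside these ratios. The multiciliated cell list, 5 of 5 genes detected, summed to 5851 CPM in replicate 1 and 3307 CPM in replicate 2, a log2 ratio of -0.82 (interval -0.85 to -0.79). Its 5 genes were all below 0, and 3 were at or below -0.5. Choroid plexus and ependyma carry multiciliated cells, so this list is not independent of the choroid plexus, where the hosts Htr2c and Trpm3 are expressed. Its highest members were Mir449a, at 4925 and 2839 CPM, and Mir34c, at 886 and 436 CPM, both of the family, named for miR-34 and Mir449a, that promotes the making of multiple cilia.

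The eye and sensory organ list (Mir183, Mir96 and Mir182, 3 of 3 detected) summed to 327 CPM in replicate 1 and 217 CPM in replicate 2, a log2 ratio of -0.59 (interval -0.71 to -0.48). The hypothalamus and neuroendocrine list, 4 of 4 detected, summed to 3322 and 2216 CPM, a ratio of -0.58 (interval -0.62 to -0.55). It was led by Mir7b at 2036 and 1249 CPM, and Mir7-2 was nearly level at 261 and 260 CPM. The skeletal muscle list had the lowest ratio of the 10 lists, -1.98 (interval -2.70 to -1.35), at 21.1 and 5.26 CPM. It rested on Mir206, with 92 and 23 counts. Mir1a-1 had 0 counts, Mir133b had 2 and 2, and Mir1a-2 had no row. Since reads that match several loci are left out, the count of 0 for Mir1a-1 does not show absence.

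The other 6 lists were near or above a ratio of 0. The epithelial and olfactory list, 7 of 7 detected, summed to 1732 and 1917 CPM (0.15). Of its 7 genes, 4 were lower in replicate 2, with a median log2 ratio of -0.030. Endothelial Mir126a stood at 15856 and 16377 CPM (0.047). The mesenchyme, meninges and mural cell list, 7 of 8 detected, summed to 6096 and 6901 CPM (0.18), and the erythroid list, 3 of 3, to 140 and 165 CPM (0.24). The neuron list, 9 of 12 detected, had a ratio of -0.060. The neural progenitor list, 3 of 4 detected with no row for Mir9-1, summed to 5722 and 6843 CPM (0.26). Most of this sum was Mir92b, at 4971 and 6123 CPM (0.30), while Mir9-2 and Mir9-3 were at -0.28 and -0.059. Reads that match several loci are outside these rows, so the Mir9 genes may be undercounted, and their part in the sum was not settled. The multiciliated, eye, neuroendocrine and skeletal muscle lists had ratios below -0.5, as did the 6 genes, and the part of such cells in the ratios of the 6 genes was not tested.

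**Figure D5:**
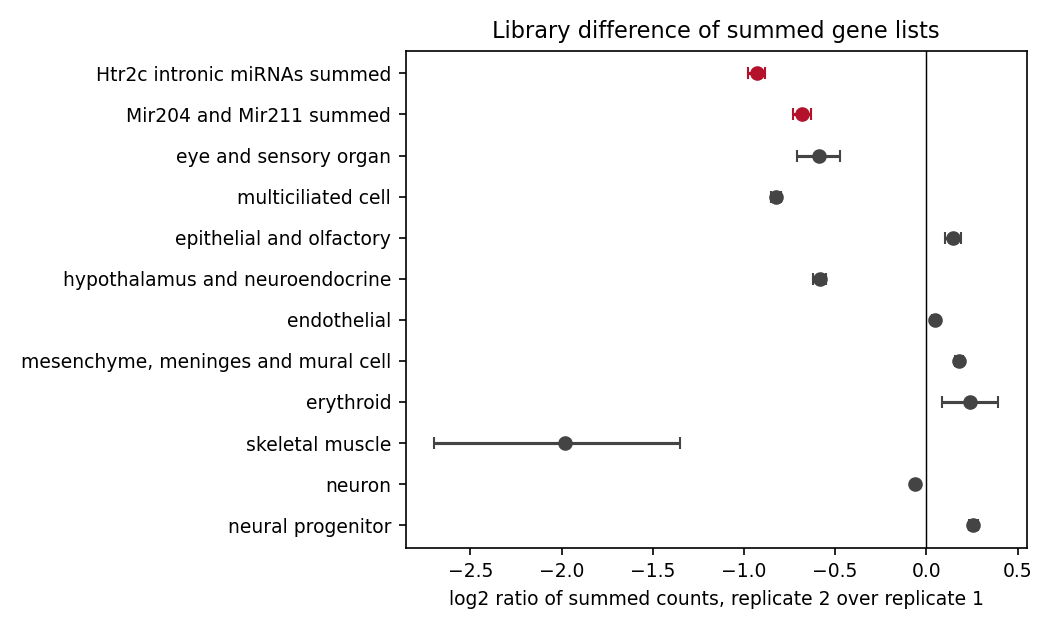
Log2 ratio of summed counts, replicate 2 over replicate 1, for the sums of the Htr2c intronic genes and of Mir204 and Mir211 (red) and for 10 marker lists (grey), with 95% exact intervals from the split of the counts. The multiciliated list at -0.82 lies between the sums at -0.93 and -0.68, and the neuron list lies at -0.060.

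Beside the 6 genes, 17 detected genes had a log2 ratio at or below -0.5, and 9 of these were in a marker list. Of these, 8 were in the multiciliated, eye or neuroendocrine lists, which held 5, 3 and 4 of the 370 detected genes. The lists were chosen with earlier results of these data known, so nothing is read from this overlap. Among 295 genes with at least 100 counts in total, the 5 with the ratio nearest to that of the Htr2c sum were Mir34c, Mir449a, Mir7b, Mir383 and Mir182. Their log2 ratios were -1.02, -0.79, -0.71, -0.69 and -0.68. With 2 libraries this likeness rests on a single ratio for each gene. Mir383 had 555 counts in replicate 1 and 365 in replicate 2 (124 and 76.8 CPM), and was in none of the lists, unlike the other 4.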

How the data were processed

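Per library, the authors deposited read counts for each miRNA gene as whole numbers, with no normalization, made on mm10 with GENCODE M4 annotation, per the deposited README text. Neither aligner nor counter was given in the sources used here. Each file had a column for either strand and 1 for each strand, of which the single-strand column with more counts was used. The 4 rows that name no gene stayed out of library sizes. Of 1973 identifiers, 1894 matched GENCODE M21, which gave symbols, coordinates and introns.

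CPM was the count over the sum of gene rows. Ratios had 0.5 counts added to each library, and their intervals came from the exact binomial split of the counts. This ratio and its interval were tried on simulated counts that held counting error only, so the spread between pools was not covered. No test between groups was possible. The members and lists were chosen with earlier results of these data known. Named genes were the members, other hairpins of the hosts, marker genes, neighbours in level and the 5 genes nearest in ratio. Hairpins were folded with RNAfold 2.7.2. Alternatives used edgeR 4.0.16 (TMM) and DESeq2 1.42.0 size factors, other totals, count minimums, added counts, the column for either strand and leaving out each library.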

Additional observations from a re-analysis of the deposited data

How the results depend on the processing

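All 42 alternative log2 ratios of the 6 single genes stayed at or below -0.5, from -1.27 to -0.62. A change of total shifts every gene alike, and the highest main ratio of the 6 genes was -0.68. The column for either strand holds the same counts for these genes. The 42 values thus follow largely from the main ratios, on which the genes were chosen, and are no separate support. With Mir99a, the most abundant gene, left out of the total, ratios became -0.90 for Mir1298, -0.62 for Mir204, -0.87 for the Htr2c sum and -0.62 for the Mir204 and Mir211 sum. This total also raised the mean levels of all 6 genes and of both sums, by construction. The rise reached the SD for Mir204 (2096 CPM), Mir204 and Mir211 summed (2103 CPM), Mir448 (249 CPM) and Mir1912 (4.18 CPM). For the others it stayed below their SD, as for Mir1298 (2085 CPM). The same total moved the median log2 ratio of detected genes from 0.046 to 0.11. With all reads of a library as the total, a choice made after seeing the data, the ratios were -1.02, -0.74, -0.99 and -0.74 in the same order. The share of genes at or below -0.5 was 11.2% with at least 10 counts in total and 18.8% with at least 1 count in total, since genes with few counts then enter.

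Leaving out replicate 1 or replicate 2 leaves the level of the other library, so the level of Mir1298 ran from 1004 to 1946 CPM, and no ratio between libraries can be given. The number of detected members was 6 without either library. No paired analysis was possible because there was 1 group. Mir211 and Mir1912 are limited by depth.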
